A study of Mus musculus with 5 samples.

Results

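In the adult mouse heart, 2181 places in the genome were listed for the homeodomain factor Nkx2-5 and for the T-box factor Tbx3 but not for the zinc-finger factor Gata4. They are termed Nkx2-5/Tbx3 regions. Each is a region of the Nkx2-5 list on chromosomes 1 to 19 that was chosen by its overlap of at least 1 bp with a Tbx3 region and by the absence of any overlap with a Gata4 region. They made up 32.95% of the 6619 Nkx2-5 regions on these chromosomes (exact 95% interval 31.8 to 34.1%) and touched 2196 of the 13191 Tbx3 regions there (16.6%). Before the restriction to chromosomes 1 to 19 the number was 2182, and the region removed lies on X. The remaining autosomal Nkx2-5 regions fell into 3 classes: 205 overlapped both Tbx3 and Gata4 (triple regions), 374 overlapped Gata4 but not Tbx3 (Nkx2-5/Gata4 regions), and 3859 overlapped neither (Nkx2-5-alone regions). Overlap with Gata4 was thus uncommon both with Tbx3 (205 regions against 2181) and without it (374 against 3859). The lack of a Gata4 region is therefore common to most of the Nkx2-5 list and not particular to Nkx2-5/Tbx3 regions.

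The regions come from chromatin immunoprecipitation with sequencing (ChIP-seq), in which DNA bound by a protein is pulled down with an antibody and sequenced, on hearts of adult mice of FVB/N background. Nkx2-5 and Gata4 were profiled in wild-type hearts. Tbx3 was profiled in Myh6-MCM;CAG-CAT-TBX3 hearts. As background, Myh6-MCM is an inducible Cre recombinase driven by a cardiomyocyte promoter, and CAG-CAT-TBX3 is a transgene that gives TBX3 once Cre has acted. Each list is 1 library with no replicate, and other libraries of the series (Tbx3 antibody in Myh6-MCM hearts, and p300 in wild-type hearts) were not analysed here. A shared region therefore joins an Nkx2-5 signal of wild-type hearts to a Tbx3 signal of transgenic hearts, and does not show that both proteins sat on the same DNA molecule. Factor, genotype and antibody cannot be told apart between the Tbx3 and the other lists.

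Nkx2-5 is expressed in most cardiomyocytes and generally activates cardiomyocyte genes. Tbx3 is a repressor normally found in the sinus node, atrioventricular node and proximal conduction system, where it holds down genes of the working myocardium such as those of fast-conducting connexins and of atrial natriuretic peptide. T-box factors and Nkx2-5 are known to bind neighbouring elements in regulatory DNA of such genes, and Gata4 is a known partner of Nkx2-5 and of T-box factors. The absence of a Gata4 region here means absence from a list of 1742 autosomal regions, which is shorter than the other lists, and not absence of the protein. Sequence depth behind the lists is unknown, so differences in list length cannot be weighted by it.

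The Nkx2-5 and Tbx3 regions of a pair mostly shared at least 50% of each other's length, with staggered ends. The shared stretch had a median length of 117 bp, with 90% of values between 42 and 214 bp, and the longest was 486 bp. It covered a median of 77.8% of the Nkx2-5 region and 71.6% of the Tbx3 region. Centres lay a median of 37.5 bp apart (exact 95% interval of the median 35 to 40 bp). They were within 25 bp in 807 pairs (37.0%), within 50 bp in 1359 (62.3%) and within 100 bp in 1935 (88.7%), and more than 150 bp apart in 62 (2.84%). These distances are a description, since the overlap itself was part of the choice.

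By chromosome coordinate, the Nkx2-5 centre lay about equally often on either side of the Tbx3 centre. The Nkx2-5 centre had the lower coordinate in 1098 pairs (50.3%, exact 95% interval 48.2 to 52.5%) and the higher in 1076 (49.3%), and 7 pairs had equal centres. The strand of nearby genes was not used, so a side relative to transcription was not tested. The orientation of the bound elements is not known either, so these counts cannot show whether both sites keep a fixed order. The centre of the Tbx3 region fell inside the Nkx2-5 region in 1745 cases (80.01%). Complete nesting was the minority: 458 Nkx2-5 regions lay wholly inside the Tbx3 region (21.0%) and 364 held the whole Tbx3 region (16.7%), whereas 1359 were staggered. No pair had the same start and end. In the triple regions the median centre distance between Nkx2-5 and Tbx3 was 36.5 bp (28.5 to 41 bp, 205 regions), and the interval of this median overlaps that of the Nkx2-5/Tbx3 regions.

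**Figure D1:**
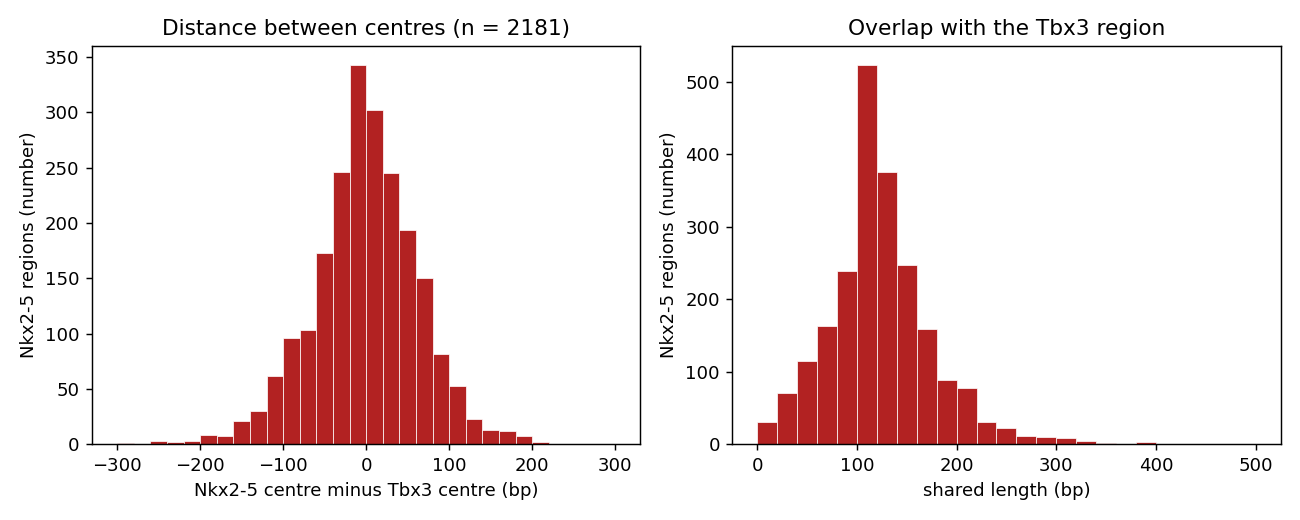
Left, number of Nkx2-5/Tbx3 regions by the coordinate of the Nkx2-5 centre minus that of the Tbx3 centre, in bins of 20 bp. Right, number by shared length in bp, in bins of 20 bp. The 2181 pairs form 1 peak around 0 with no preferred side by chromosome coordinate, and the middle 50% share 94 to 148 bp.

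Pairing was close to one-to-one. Of the Nkx2-5/Tbx3 regions, 2154 touched a single Tbx3 region and 27 touched 2, while 12 Tbx3 regions spanned 2 of them. Both regions covered each other by at least 50% in 1481 pairs (67.9%) and by at least 90% in 108 (4.95%). Of the 5 pairs with the longest shared stretch, 3 are given here, named after their values were seen. The longest stretches, 486 bp at chr8:124086767-124087304 and 430 bp at chr8:73796188-73796640, are not among these 3. One of the 3 was chr16:34352810-34353201 (mm9, 392 bp), whose Tbx3 region at chr16:34352822-34353215 shared 380 bp with it. Another was chr5:124959905-124960307 (403 bp), which held the whole Tbx3 region chr5:124959919-124960305, with centres 6 bp apart. At chr5:122764936-122765323 the centres were 4.5 bp apart and 380 bp were shared.

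At the edge of the rule, the smallest overlaps were 2 bp, at chr15:99082364-99082465 (Tbx3 at chr15:99082464-99082626) and chr2:91803861-91803972. Overlaps of at most 20 bp numbered 35 (1.60%), and of at most 50 bp 163 (7.47%). Just outside, 2 Nkx2-5-alone regions abutted a Tbx3 region without sharing a base, at chr1:58052682-58052845 and chr11:68200348-68200514. Starts were read as counted from 0, which the labels do not state, and these 2 would overlap by 1 bp if starts were counted from 1. A further 14 such regions were within 10 bp of one, which makes 16 in all (0.415% of Nkx2-5-alone regions), and 115 were within 100 bp (2.98%). On the Gata4 side, the nearest miss was chr2:128793020-128793130, 13 bp from a Gata4 region, followed by chr6:24492481-24492580 at 19 bp and chr5:122960846-122961126 at 21 bp. The smallest Gata4 overlap that made a region triple was 2 bp, at chr8:35089039-35089211.

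A small group of Nkx2-5/Tbx3 regions was bordered by Gata4 across its Tbx3 partner. In 9 cases the Tbx3 region reached a Gata4 region that the Nkx2-5 region did not. At chr2:128793020-128793130, for example, the Tbx3 region chr2:128792786-128793206 (421 bp) held both the Nkx2-5 region and the Gata4 region chr2:128792845-128793006, which lie side by side. The same arrangement was seen at chr7:135666922-135667023, where a Tbx3 region of 418 bp spanned Nkx2-5 and a Gata4 region 125 bp away. At chr16:33917114-33917308, a Tbx3 region of 416 bp held the Nkx2-5 region and reached a Gata4 region 98 bp away. These 3 were picked from the 9 after their values were seen, as those with the widest Tbx3 region.

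Nkx2-5/Tbx3 regions were wider than Nkx2-5-alone regions and narrower than those that also carried Gata4. Median width was 155 bp (exact 95% interval of the median 152 to 157 bp; interquartile range 124 to 201 bp), against 133 bp for Nkx2-5-alone (132 to 135 bp), 171.5 bp for Nkx2-5/Gata4 (160 to 178 bp) and 201 bp for triple regions (182 to 220 bp). The median was above that of Nkx2-5-alone regions on 19 of 19 chromosomes. Regions of 300 bp or more made up 6.42% of Nkx2-5/Tbx3 regions (140 of them; exact 95% interval 5.43 to 7.53%), 1.24% of Nkx2-5-alone regions (0.918 to 1.65%) and 21.0% of triple regions (15.6 to 27.2%). The share of 6.68% in Nkx2-5/Gata4 regions (4.37 to 9.71%) was not separated from that of Nkx2-5/Tbx3 regions. A wide region has more room to overlap, so width is bound up with the rule. These intervals treat regions as independent, cover counting error only, and say nothing about variation between hearts.

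**Figure D2:**
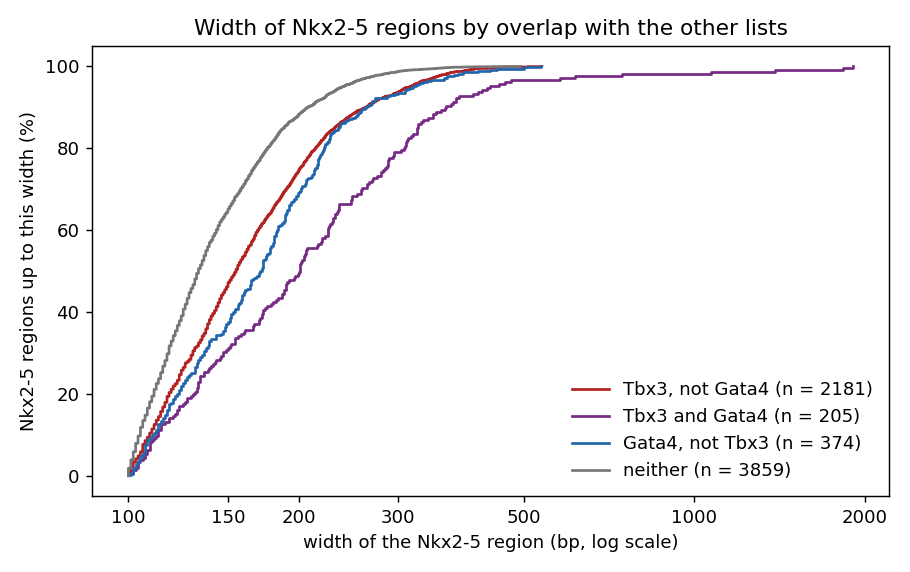
Cumulative percentage of Nkx2-5 regions (vertical axis) up to a given width in bp (horizontal axis, log scale), with 1 line for each class of overlap. The line of the 2181 Nkx2-5/Tbx3 regions (median 155 bp) lies between Nkx2-5-alone (133 bp) and Nkx2-5/Gata4 (171.5 bp) over most of the range, and the triple regions (201 bp) lie farthest right.

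The share of Nkx2-5 regions paired with Tbx3 alone was higher among wider Nkx2-5 regions. With the list cut by width into 10 parts of nearly equal number, in the narrowest part (100 to 106 bp) 21.5% were Nkx2-5/Tbx3 regions (142 of 662), in the sixth (142 to 156 bp) 35.6%, and in the widest (234 to 1907 bp) 47.6% (315 of 662). When the overlap with Tbx3 was replaced by centres within 100 bp, a rule added after seeing the data that left the overlap rule for Gata4 as it was, the same parts held 18.7%, 31.9% and 40.2%. The part of width in this order was not tested. On the Tbx3 side, too, paired regions were wider than those in neither other list. Tbx3 regions touched by an Nkx2-5/Tbx3 region had a median width of 167.5 bp (163 to 171 bp, 2196 regions). For Tbx3 regions in neither other list it was 143 bp (142 to 145 bp, 10619 regions). Tbx3 regions that overlapped Nkx2-5 and Gata4 had 172 bp (157 to 187 bp, 207 regions), an interval that includes the 167.5 bp. Those that overlapped Gata4 only had 147 bp (139 to 159 bp, 164 regions). A wide Tbx3 region also has more room to be touched. Within pairs the widths of both regions were nearly unrelated (Pearson r = 0.154, Spearman rho = 0.123 across 2181 pairs, a description). In the 205 triple regions, Spearman rho between the widths of the Nkx2-5 and Tbx3 regions was 0.334. Tbx3 was the wider in 1189 pairs (54.5%), Nkx2-5 in 968 (44.4%), and 24 were equal.

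The 5 widest Nkx2-5/Tbx3 regions showed both close matches and narrow Tbx3 regions within broad Nkx2-5 regions. The widest, chr8:124086767-124087304 (538 bp), shared 486 bp with a Tbx3 region of 567 bp, and the nearest Gata4 region was 39.6 kb away. At chr10:95236069-95236577 (509 bp) the Nkx2-5 region held a Tbx3 region of 354 bp, with centres 24.5 bp apart. At chr4:33348376-33348834 (459 bp) 288 bp were shared. The other two were broad Nkx2-5 regions around a small Tbx3 region: chr4:128411399-128411911 (513 bp) held one of 126 bp, and chr17:10272742-10273198 (457 bp) held one of 107 bp. In all 5 the nearest Gata4 region was at least 39.6 kb away, and for chr4:128411399-128411911 it was 1713 kb away.

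More than 10 kb from any region of 400 bp or more in the 3 lists, the widest were chr13:55551855-55552252 (398 bp, 287 bp shared) and chr9:36575168-36575564 (397 bp, 112 bp shared). They were followed by chr4:43454956-43455349 (394 bp, 154 bp shared), chr16:34352810-34353201 (392 bp, 380 bp shared) and chr2:156452281-156452672 (392 bp, 305 bp shared). Their nearest Gata4 regions lay between 85.6 kb (chr13) and 1596 kb (chr4) away. Of all Nkx2-5/Tbx3 regions, 2064 lay outside such stretches and outside the first 3.1 Mb of a chromosome.

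Nkx2-5/Tbx3 regions occurred on all 19 autosomes. Chromosome 11 held the most, 182, followed by chromosome 2 with 176, and chromosome 13 the fewest, 68. As a share of the Nkx2-5 regions on the chromosome, values ran from 26.1% on chromosome 13 (exact 95% interval 20.8 to 31.8%) and 26.6% on chromosome 9 (22.1 to 31.4%) to 36.4% on chromosome 19 (29.8 to 43.4%) and 36.7% on chromosome 5 (32.2 to 41.3%). The intervals of chromosomes 13 and 9 lay below the share over all 19, and no interval lay above it. These intervals are not adjusted for looking at 19 chromosomes. Chromosomes with more Tbx3 regions per Nkx2-5 region tended to have a higher share (Pearson r = 0.537, Spearman rho = 0.565 over 19 chromosomes, a description). Both values are divided by the same number of Nkx2-5 regions, and the rule itself asks for a Tbx3 region. A positive relation is therefore partly built in. The ratio of Tbx3 to Nkx2-5 regions ran from 1.79 on chromosome 1 to 2.32 on chromosome 19.

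**Figure D3:**
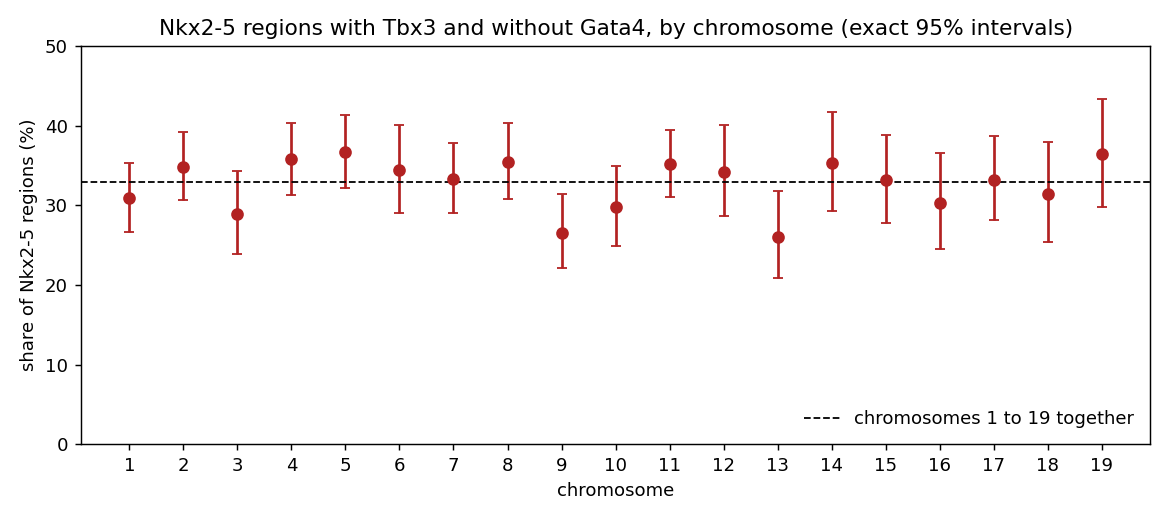
Nkx2-5/Tbx3 regions as a percentage of the Nkx2-5 regions on each of chromosomes 1 to 19, points with exact 95% intervals, and the value over all 19 (dashed, 32.95%). Most intervals hold the dashed line. Chromosomes 9 (26.6%) and 13 (26.1%) lie below it.

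Further Tbx3 regions lay within 10 kb of Nkx2-5/Tbx3 regions more often than of Nkx2-5-alone regions. Counted from the Tbx3 list, the share was not separated from that of Tbx3 regions in neither other list. Apart from the overlapping one, a Tbx3 region lay within 10 kb of 1083 Nkx2-5/Tbx3 regions (49.7%), against 37.3% of Nkx2-5-alone regions, a difference of 12.4 percentage points (Newcombe 95% interval 9.79 to 15.0). The share was higher on 18 of 19 chromosomes. It was 50.2% at triple regions (difference -0.588 points, -7.68 to 6.51) and 40.6% at Nkx2-5/Gata4 regions (difference 9.01 points, 3.55 to 14.3). Counted from the Tbx3 list, 50.6% of Tbx3 regions under an Nkx2-5/Tbx3 region and 49.1% of Tbx3 regions in neither other list had another Tbx3 region within 10 kb, a difference of 1.46 points (-0.833 to 3.76). The added Tbx3 regions come from the same list as the rule, and neighbouring regions are not independent, so these intervals are too narrow.

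A small share of Nkx2-5/Tbx3 regions had a Gata4 region within 10 kb, only slightly above that of Nkx2-5-alone regions. The Gata4 list is short (1742 autosomal regions), and no share at random places was computed to set these values against. The nearest Gata4 region lay a median of 212 kb away, against 262 kb for Nkx2-5-alone regions. One within 10 kb was found for 217 Nkx2-5/Tbx3 regions (9.95%, exact 95% interval 8.72 to 11.3%) and for 7.93% of Nkx2-5-alone regions, 2.02 points apart (0.534 to 3.58). This small difference was in that direction on 12 of 19 chromosomes and in the other on 7. Within 1 kb the shares were 2.71% and 2.23% (difference 0.477 points, -0.316 to 1.35). With only the wider 50% of each list kept, the difference at 10 kb was 0.424 points (-1.28 to 2.36). Regions that themselves overlapped Gata4 had a further Gata4 region within 10 kb more often: 15.8% of Nkx2-5/Gata4 regions and 25.4% of triple regions. Nkx2-5/Tbx3 regions minus these were -5.83 points (-10.0 to -2.23) and -15.4 points (-21.9 to -9.79). The further Gata4 regions come from the same list that defined these classes, so both differences are a description. Neighbouring regions are not independent, so the intervals are too narrow.

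**Figure D4:**
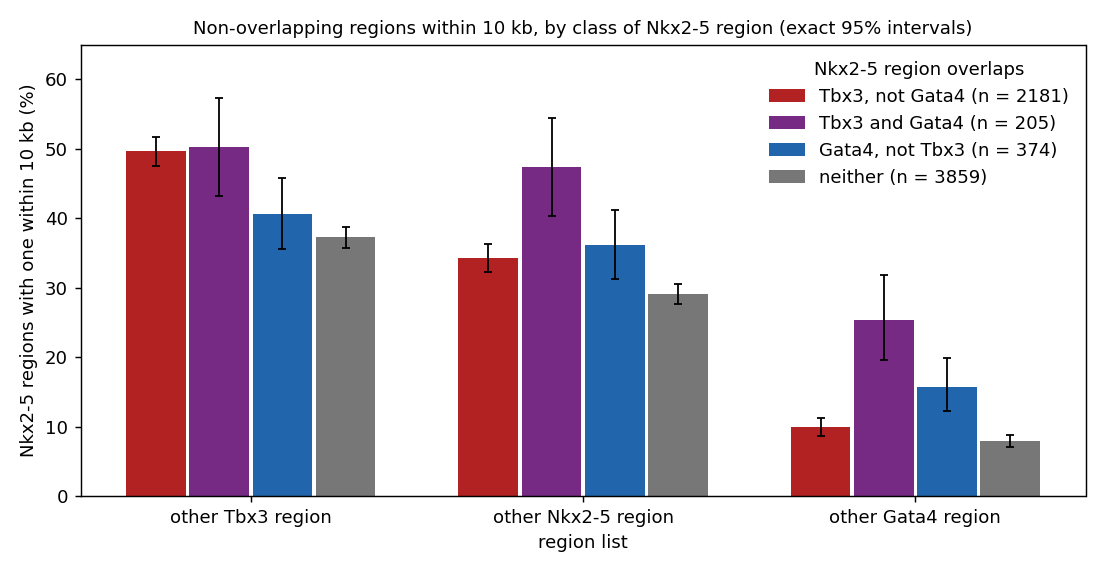
Percentage of Nkx2-5 regions of each class with a further, non-overlapping region of the Tbx3, Nkx2-5 or Gata4 list within 10 kb, with exact 95% intervals. Nkx2-5/Tbx3 regions (red) stand level with triple regions for Tbx3 (49.7% and 50.2%) but well below them for Gata4 (9.95% and 25.4%). The Tbx3 and Gata4 lists also defined the classes.

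Nkx2-5/Tbx3 regions had other Nkx2-5 regions nearby somewhat more often than Nkx2-5-alone regions did, and these neighbours were more often Nkx2-5/Tbx3 regions too. Neither value was separated from that of Nkx2-5/Gata4 regions. Another Nkx2-5 region of any class lay within 10 kb of 747 (34.3%), against 29.1% of Nkx2-5-alone regions (difference 5.15 points, Newcombe 95% interval 2.71 to 7.61; higher on 14 of 19 chromosomes) and 47.3% of triple regions (-13.1 points, -20.2 to -6.05). The share at Nkx2-5/Gata4 regions was 36.1%, and the difference from it (-1.85 points, -7.20 to 3.27) was not separated from 0. With only the wider 50% of each list kept, the difference from Nkx2-5-alone regions was 2.82 points (-0.434 to 6.21). Of the 747 nearest neighbours, 311 were Nkx2-5/Tbx3 regions themselves (41.6%, exact 95% interval 38.1 to 45.3%), 368 were Nkx2-5-alone, and 68 overlapped Gata4. For Nkx2-5-alone regions with a neighbour within 10 kb, 338 of 1123 neighbours were Nkx2-5/Tbx3 regions (30.1%), which is 11.5 points fewer (7.10 to 16.0). This difference had the same direction on 15 of 19 chromosomes. For Nkx2-5/Gata4 regions it was 52 of 135 (38.5%, 30.3 to 47.3%), whose interval includes the 41.6%, and for triple regions 21 of 97 (21.6%, 13.9 to 31.2%). Triple neighbours also overlap Tbx3 but are not in these counts. They were 17 of the 747 neighbours, 41 of the 1123, 15 of the 135 and 17 of the 97. The low share at triple regions is therefore not a share of all neighbours that overlap Tbx3. The same Tbx3 list set the class of a region and that of its neighbour, so the shares of neighbour classes and their differences are a description. Pairs of mutual neighbours are counted from both ends, and neighbouring regions are not independent, so the intervals are too narrow.

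Most Nkx2-5/Tbx3 regions nonetheless had no other Nkx2-5/Tbx3 region within 10 kb. This share depends on how many regions a class holds. It is not given for the other classes, so it cannot be called a trait of these regions. Another Nkx2-5/Tbx3 region lay within 10 kb of 392 of them (17.97%, exact 95% interval 16.4 to 19.7%). Joined across gaps of at most 10 kb they formed 1967 loci, of which 1789 held 1 region, 148 held 2, 26 held 3, 2 held 4 and 2 held 5. In the 57 pairs of consecutive regions no more than 1 kb apart, centres were a median of 695 bp apart (interquartile range 345.5 to 857 bp), and the smallest distance was 184.5 bp.

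The 4 loci with 4 or 5 Nkx2-5/Tbx3 regions differed in how Gata4 lay around them. The locus on chromosome 2 (mm9, 167670113 to 167692591, 22.5 kb) held 5, at chr2:167670113-167670413, chr2:167678947-167679083, chr2:167679245-167679386, chr2:167686037-167686344 and chr2:167692401-167692591. Their centres were 6 to 60.5 bp from those of their Tbx3 regions. The span held 9 Nkx2-5 regions, 8 Tbx3 regions and 1 Gata4 region, the last at a separate site (chr2:167677032-167677145) where all 3 lists met. Thus Gata4 was present in this locus, 1.80 kb from the nearest Nkx2-5/Tbx3 region.

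The locus on chromosome 11 (98634168 to 98644933, 10.8 kb) also held 5 and had no Gata4 region in the span or within 10 kb of it. All 5 Nkx2-5 regions in the span were Nkx2-5/Tbx3 regions, and all 4 Tbx3 regions were part of a pair. The nearest Gata4 region was at chr11:100263765-100263881, 1619 kb from the last of the 5. The regions were chr11:98634168-98634463 (296 bp, 210 bp shared), chr11:98635124-98635226 (103 bp, 45 bp shared), chr11:98635326-98635504 (179 bp, 51 bp shared), chr11:98636603-98636865 (263 bp, 260 bp shared) and chr11:98644726-98644933 (208 bp, 208 bp shared). The second and the third lay on either end of 1 Tbx3 region, chr11:98635182-98635376, with centres 104 and 136 bp from its own.

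On chromosome 1 (74048131 to 74064659, 16.5 kb), 4 Nkx2-5/Tbx3 regions lay among 6 Nkx2-5 and 6 Tbx3 regions and no Gata4 region. They were chr1:74048131-74048340, chr1:74055100-74055446, chr1:74063229-74063528 and chr1:74064499-74064659, with centres 2 to 140.5 bp from those of their Tbx3 regions. Within 10 kb to either side there were 11 Tbx3 and 7 Nkx2-5 regions in all, still without Gata4, whose nearest region was 31.5 kb from the last of the 4. The locus lies in the richest megabase of the genome for this pattern: between 74 and 75 Mb of chromosome 1 there were 16 Nkx2-5/Tbx3 regions, among 23 Nkx2-5, 51 Tbx3 and 2 Gata4 regions. The next megabase by number was chromosome 8 from 122 to 123 Mb, with 12 among 19 Nkx2-5, 40 Tbx3 and 1 Gata4 regions.

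The locus on chromosome 14 (55585463 to 55589140) was the most compact, with 4 in 3.68 kb. They were chr14:55585463-55585722, chr14:55586470-55586588, chr14:55586843-55587019 and chr14:55588931-55589140. A triple site stood between the third and the fourth, with Nkx2-5 at chr14:55587195-55587625, Tbx3 at chr14:55587167-55587406 and Gata4 at chr14:55587268-55587482. The third was 248 bp from that Gata4 region. The second and the third shared 1 Tbx3 region of 465 bp, chr14:55586553-55587017, with 36 and 175 bp of overlap. This locus has 2 regions of 400 bp or more and is absent when stretches around such regions are removed. Genes at these loci are not named, because no annotation of build mm9 was used.

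**Figure D5:**
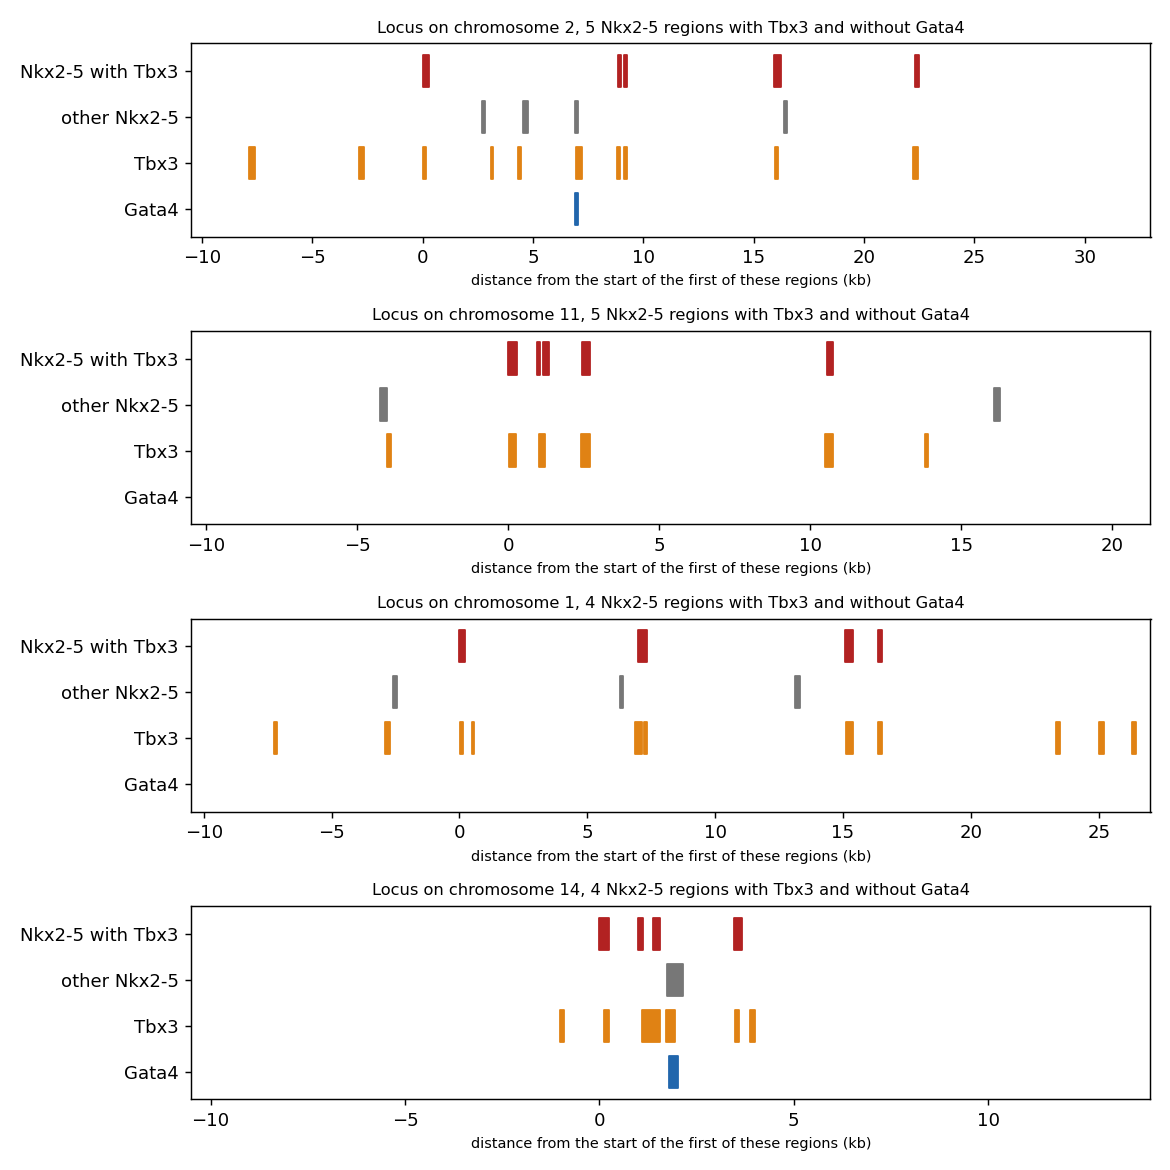
Positions of regions at the 4 loci, drawn to scale as distance in kb from the start of the first Nkx2-5/Tbx3 region, with 10 kb to either side. Rows show Nkx2-5/Tbx3 regions (red), other Nkx2-5 regions (grey), Tbx3 regions (orange) and Gata4 regions (blue). The loci on chromosomes 11 and 1 have no Gata4 region, and those on chromosomes 2 and 14 have 1 each, at a site apart from the red regions.

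Over larger distances the regions were unevenly spread. The same count over the whole Nkx2-5 list is not given here, so the unevenness cannot be called particular to them. Of the megabase bins of chromosomes 1 to 19, 930 held at least 1 Nkx2-5/Tbx3 region, 401 of them exactly 1, and 103 held 5 or more. These 103 bins held 657 of the 2181 regions. In all, Nkx2-5/Tbx3 regions covered 377 kb, of which 269 kb was also covered by Tbx3, against 568 kb covered by Nkx2-5-alone regions.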

How the data were processed

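Lists of regions for Tbx3, Nkx2-5 and Gata4, deposited by the authors with 1 library each, give a chromosome, start and end and no score, height or read number. Per the submitters' processing notes, positions are on mm9. Not given in the sources used here are the aligner, peak caller, threshold, depth and use of the control. Starts were read as counted from 0 (BED) and are printed counted from 1. Regions on chromosomes 1 to 19 were kept. Overlap was at least 1 bp, the Tbx3 partner was the region with the largest overlap, and gaps run from edge to edge. Shares carry exact Clopper-Pearson 95% intervals, differences of shares Newcombe 95% intervals, and medians exact order-statistic 95% intervals, all over regions and for counting error only. No p-value was computed, since the classes were defined by the overlaps and no factor has a replicate. Overlap counting was tested on simulated data. The classes, lists and loci were chosen with earlier results of these data known. The rule for named regions was the 5 widest, the 5 widest outside stretches with regions of 400 bp or more, and the 3 loci with the most regions, to which a tie added 1. Base composition, motifs, location in genes and gene lists, planned for an mm9 genome or annotation, were not run: the gene table used here is of GRCm38, and no position was converted. Python 3.11.15, numpy 2.4.6, pandas 2.3.3 and scipy 1.17.1 were used.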

Additional observations from a re-analysis of the deposited data

How the results depend on the processing

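No replicate could be left out, and no paired analysis was possible because each factor has 1 library and no result comes from a test. Alternatives were 50% or more of the shorter region shared, no Gata4 region within 1 kb, removal of wide stretches and chromosome starts, the wider 50% of each list and, added after seeing the data, centres within 100 bp. Those for geometry, surroundings, the share of the Nkx2-5 list and groups other than gap sizes were also added then, as were, for width, the Gata4 distance and the wider 50%. Keeping the wider 50% of each list gave 904 Nkx2-5/Tbx3 regions, of which 98 were grouped and 5.86% had a Gata4 region within 10 kb. Gaps of 2 kb and 50 kb gave 180 and 793 grouped regions. An overlap of at least 50% gave a median centre distance of 31.5 bp. The count was otherwise 1936 to 2122, and the width difference from Nkx2-5-alone regions 20 to 24 bp. As a share of the Nkx2-5 list, they were 29.3% with 50% overlap, 29.2% with centres within 100 bp and 27.3% in the wider 50%. Of 44 values under an alternative, only the width differences and the differences of shares could turn direction, since the others are always positive. None of those turned, and the intervals of 2 differences came to include 0. Counts were held to 1.5 times, and shares and medians to their 95% interval. By these measures 9 values moved: 904, 98, 180 and 793 regions, the 5.86%, the 31.5 bp and the 3 shares of the list. Depth is unknown, so absence from a list cannot be set against it.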
